A study of Homo sapiens with 19 samples.

Results

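The promoters of 9 genes of the RB and E2F pathway were examined in 10 lists of ChIP-seq intervals from prostate cancer cell lines. The genes were E2F1, E2F2, E2F3, E2F7, E2F8, TFDP1, RB1, RBL1 and RBL2, and a promoter was the stretch of 2 kb either side of a stated hg19 start site. Any deposited interval that overlapped this window was taken. In all, 23 of the 203381 intervals lay in the 9 windows, 16 of them in the lists of the retinoblastoma protein RB and 7 in the lists of V5-tagged E2F1.

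RB was mapped in VCaP cells (1 library) and in C4-2 cells (2 libraries), both untreated. V5 was mapped in C4-2 cells with a tetracycline-controlled E2F1, as the K185R mutant or as wild type (WT), with 2 libraries in each of 4 treatments. These were doxycycline (0.25 ug/ml for 3 days) followed by GSK2879552 (50 uM for 24 hours), doxycycline alone, GSK2879552 alone, and no treatment. The titles of the VCaP RB library and of the untreated V5 libraries read Veh (vehicle), while those of the C4-2 RB libraries read Ctrl. GSK2879552 inhibits the lysine demethylase LSD1, and in K185R a lysine of E2F1 is exchanged for arginine. All cells were in medium with charcoal-stripped serum, which is low in steroid hormones. The tagged E2F1 was added to cells that keep their own E2F1 gene, and the number of clones per line is not stated. The names of the V5 lists read siNTC and siRB where the treatment labels read untreated and doxycycline, and groups follow the labels. Whether tagged E2F1 was present without doxycycline is not stated either, so a V5 interval is given below as an interval.

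RB is a pocket protein: it binds E2F transcription factors at promoters and holds back the genes of S phase until cyclin-dependent kinases phosphorylate it. E2F1, E2F2 and E2F3 are the E2Fs that activate transcription and that RB binds best. They bind DNA together with a DP partner such as the TFDP1 product. E2F7 and E2F8 bind DNA without a DP partner and repress, and RBL1 (p107) and RBL2 (p130) are the other pocket proteins. Several of these genes are themselves known E2F targets, so the family feeds back on itself.

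The sequences before the start sites show where E2F-type letters lie at 5 of the promoters. E2F3 and E2F7 are shown because RB and V5 intervals met there, RBL1 because its RB intervals were among the strongest, E2F1 because it encodes the tagged factor, and RBL2 because it had no RB interval. Each sequence is the 250 bases before the RefSeq start, 5′ to 3′ along the gene, from build GRCh38.p14. These coordinates cannot be set beside the hg19 coordinates of the intervals, and the start sites of both builds may differ by some bases. The forms searched, on either strand, were TTTCCCGC, TTTCGCGC, TTTGCCGC and TTTGGCGC, and the same forms without the first T. Capitals mark the 7 letters after the first T wherever they occur.
E2F3, chr6:20401629-20401878, plus strand: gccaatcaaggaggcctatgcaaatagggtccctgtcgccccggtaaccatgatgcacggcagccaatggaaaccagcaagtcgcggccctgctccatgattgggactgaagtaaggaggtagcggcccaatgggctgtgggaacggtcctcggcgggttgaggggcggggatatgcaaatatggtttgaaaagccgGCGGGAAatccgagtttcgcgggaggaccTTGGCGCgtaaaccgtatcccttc
E2F7, chr12:77065570-77065819, minus strand: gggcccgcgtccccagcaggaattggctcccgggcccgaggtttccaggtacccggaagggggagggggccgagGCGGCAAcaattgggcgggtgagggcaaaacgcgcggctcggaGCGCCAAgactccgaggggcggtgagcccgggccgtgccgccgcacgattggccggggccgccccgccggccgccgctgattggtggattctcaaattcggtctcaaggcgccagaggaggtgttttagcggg
RBL1, chr20:37095998-37096247, minus strand: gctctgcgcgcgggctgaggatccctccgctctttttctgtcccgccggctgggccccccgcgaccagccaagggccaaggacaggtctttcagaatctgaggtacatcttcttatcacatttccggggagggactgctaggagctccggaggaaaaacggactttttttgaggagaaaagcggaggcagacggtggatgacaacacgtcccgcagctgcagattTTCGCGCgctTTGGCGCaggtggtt
E2F1, chr20:33686386-33686635, minus strand: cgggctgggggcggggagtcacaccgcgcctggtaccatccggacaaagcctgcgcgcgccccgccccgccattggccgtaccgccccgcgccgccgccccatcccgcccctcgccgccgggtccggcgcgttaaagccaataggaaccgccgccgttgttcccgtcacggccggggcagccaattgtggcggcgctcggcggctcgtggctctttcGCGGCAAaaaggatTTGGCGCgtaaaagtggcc
RBL2, chr16:53434221-53434470, plus strand: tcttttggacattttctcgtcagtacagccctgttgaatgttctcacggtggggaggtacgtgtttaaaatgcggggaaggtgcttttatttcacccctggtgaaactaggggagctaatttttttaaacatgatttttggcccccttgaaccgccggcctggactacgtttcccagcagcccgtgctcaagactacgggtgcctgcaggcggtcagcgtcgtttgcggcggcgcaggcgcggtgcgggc

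RefSeq promoters of the gene's first start were found for 7 of the 9 genes, all but E2F8 and RB1. Of these 7, 6 held at least 1 of the 7-letter forms (no first T), and RBL2 held none, against 10.9% of 35116 RefSeq promoters of the same length. The full 8-letter forms, which contain them, occurred in 5 of the 7, against 2.79% of the same promoters. They were found at E2F1, E2F2, E2F3, RBL1 and TFDP1. At E2F1 and RBL1 a pair of them lay within the last 33 and the last 26 bases before the start. E2F7 held only the shorter forms, farther out, at 133 to 127 and at 176 to 170 bases before its start. The forms were chosen after the promoters had been seen, so the shares of 10.9% and 2.79% are for description and test nothing. The 35116 promoters can include more than 1 start of a gene, while each of the 7 genes is represented by its first start. These letters are a description of the sequence and not evidence of binding.

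With a single list per group there was no measure of replicate spread, no test was made, and no difference below has a replicate check. The fold enrichment and −log10 q of an interval are the authors' own values and describe it within its list. Reads at a summit were solved from the deposited fold and p, with 95% Poisson intervals that cover counting error only. The RB lists held 17026 intervals in VCaP and 9146 in C4-2, at 2.98 and 8.21 reads per kilobase. The V5 lists held 2805 to 64025 intervals at 0.716 to 1.79 reads per kilobase, so a missing V5 interval means not detectable at this depth. At the genome-wide background, the lowest summit that was called had 5 reads in VCaP, 6 in C4-2 and 3 in each V5 list.

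RB lay at the same 7 of the 9 promoters in both cell lines: E2F1, E2F2, E2F3, E2F7, E2F8, RBL1 and TFDP1. RB1 and RBL2 had no RB interval in either line, so RB was not detectable there at this depth. Of all 4001-base windows of the genome, 2.28% held an RB interval in VCaP, 1.08% in C4-2 and 0.733% in both. These windows include gene-poor sequence, and the share over all promoters was not analysed here because no hg19 annotation was at hand. In the RefSeq gene table (GRCh38), the divergent transcript RB1-DT lies within 2 kb of the RB1 start and LOC124901482 within 2 kb of the E2F3 start, and no other gene lies that near to the start of E2F1, E2F2, E2F7, RBL1, RBL2 or TFDP1. At each of the 7 promoters the VCaP interval overlapped a C4-2 interval, as did 30.2% of all VCaP intervals. In the shorter C4-2 list, 5420 of all 9146 intervals overlapped a VCaP interval. The strongest RB interval of each promoter had its summit 5 to 226 bases from the start site in VCaP (median 96) and 8 to 167 in C4-2 (median 58).

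**Figure D1:**
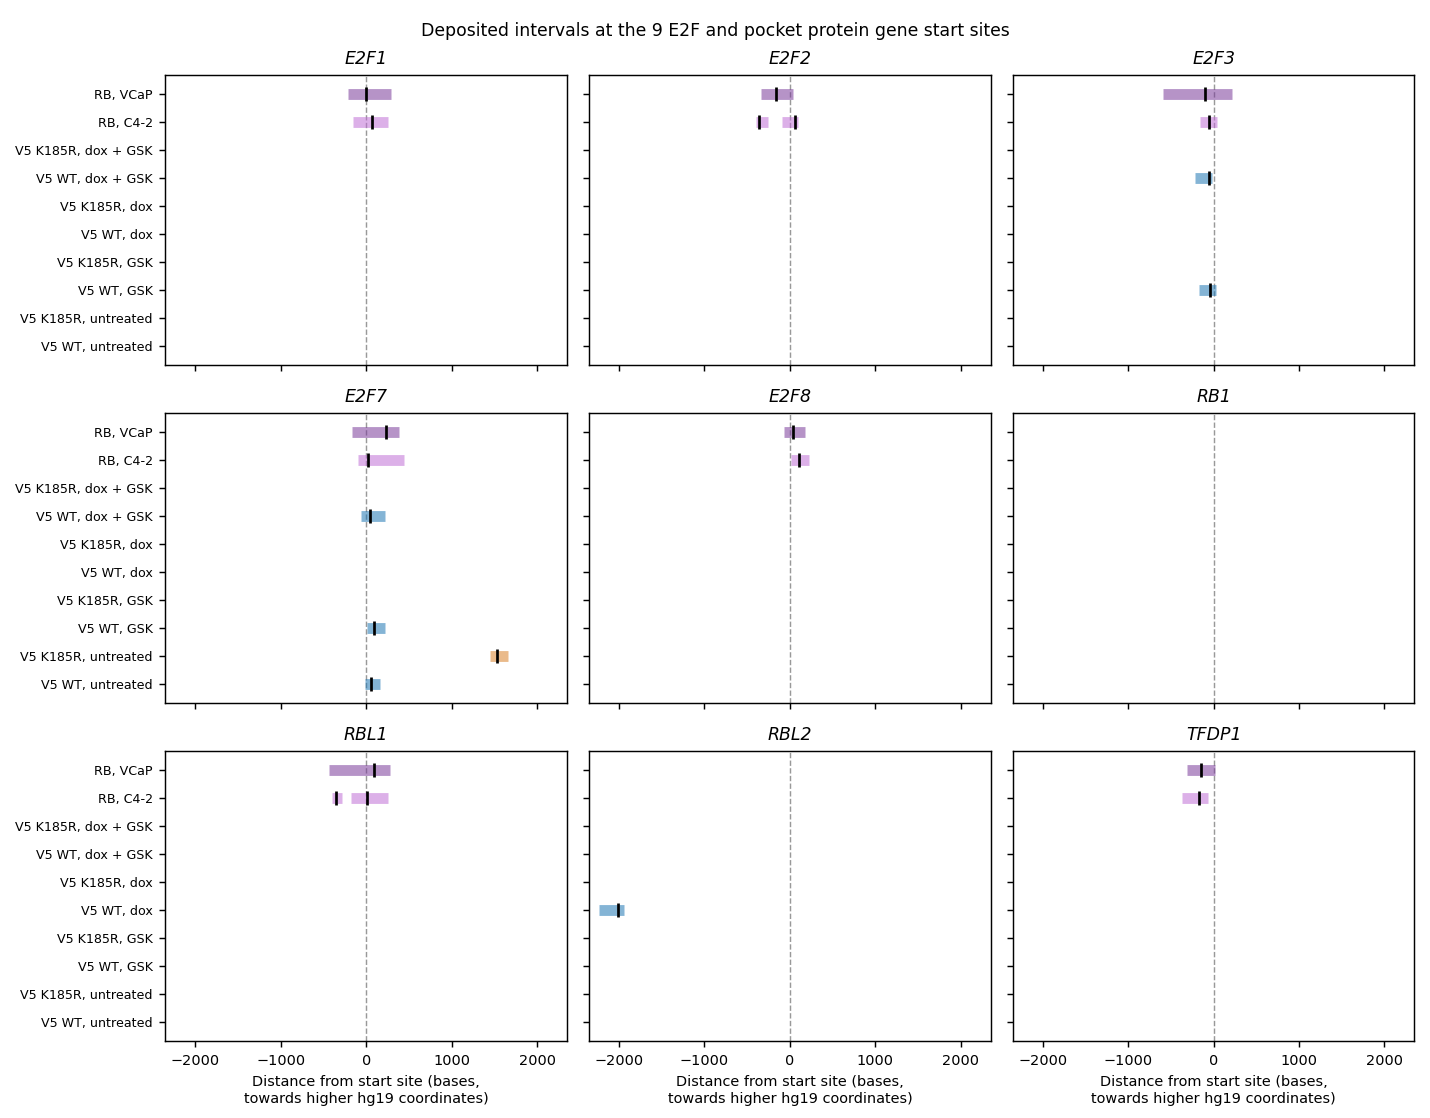
Deposited intervals (bars) and their summits (black ticks) by distance from the hg19 start site in bases, with 1 panel per gene and 1 row per list. RB bars stand at 7 start sites in both cell lines, blue WT V5 bars lie over them at E2F3 and E2F7 only, and the K185R bar (orange) at E2F7 lies 1527 bases from the start site.

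Among the activator genes, E2F3 had the VCaP interval of highest −log10 q of the 9 promoters. It spanned chr6:20401550-20402350 in VCaP, 801 bases wide, with a fold enrichment of 14.1, a −log10 q of 112.8 and 148 summit reads (125.1 to 173.9), rank 18 of 17026. In C4-2 it spanned chr6:20401976-20402183, with a fold of 8.26, a −log10 q of 15.3 and 27 reads (17.8 to 39.3), rank 1025 of 9146. The summits lay 47 bases apart, at 96 bases upstream of the start in VCaP and 49 in C4-2. The local background at E2F3 in VCaP was 15.0 times that list's genome-wide level, against 2.91 times in C4-2.

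E2F1, the gene of the tagged factor itself, had an RB interval over its start site in both lines. It lay at chr20:32273993-32274494 in VCaP with a fold of 14.3, a −log10 q of 42.8 and 52 reads (38.8 to 68.2), and at chr20:32274054-32274459 in C4-2 with a fold of 8.08, a −log10 q of 14.5 and 26 reads (17.0 to 38.1). E2F2 was weaker. Its VCaP interval at chr1:23857376-23857752 had a fold of 7.34, a −log10 q of 8.51 and 14 reads (7.65 to 23.5). C4-2 had a pair of intervals there, both of which overlapped the VCaP interval. The stronger, at chr1:23857616-23857806, had a fold of 6.76, a −log10 q of 6.95 and 13 reads (6.92 to 22.2), and the weaker a fold of 4.83 and 9 reads (4.12 to 17.1). TFDP1, the gene of the DP partner, had its summits 23 bases apart, 144 bases upstream of the start in VCaP and 167 in C4-2. Its interval had a fold of 13.6, a −log10 q of 24.1 and 26 reads (17.0 to 38.1) in VCaP, and a fold of 11.7, a −log10 q of 22.3 and 29 reads (19.4 to 41.6) in C4-2.

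The repressor genes had the RB intervals of lowest −log10 q and fold of the 7 in VCaP. E2F7 had a fold of 5.64, a −log10 q of 5.997 and 14 reads (7.65 to 23.5) at chr12:77459197-77459746 in VCaP. In C4-2 its interval at chr12:77459265-77459802 had a fold of 8.30, a −log10 q of 12.99 and 22 reads (13.8 to 33.3). The E2F7 summits lay 209 bases apart. By −log10 q E2F8 came last of the 7 in both lists, with a fold of 5.75 and a −log10 q of 5.29 in VCaP at chr11:19262438-19262687 and a fold of 4.37 and a −log10 q of 2.74 in C4-2 at chr11:19262520-19262731. It ranked 8257 of 17026 in VCaP and 8574 of 9146 in C4-2, so in C4-2 it stood near the end of the list. Its summits rested on 11 reads (5.49 to 19.7) in VCaP and 10 (4.80 to 18.4) in C4-2.

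The pocket protein genes differed from each other. RBL1 had the highest −log10 q of the 9 promoters in C4-2, at 53.6, and the second place in VCaP, at 110.6. Its interval spanned chr20:35723978-35724684 in VCaP, with a fold of 21.3 and 114 reads (94.0 to 136.9), rank 21 of 17026, and chr20:35724226-35724662 in C4-2, with a fold of 15.4 and 64 reads (49.3 to 81.7), rank 82 of 9146. A second C4-2 interval with its summit 359 bases downstream of the start had a fold of 4.74. The nearest RB intervals to RB1 lay 208.4 kb away in VCaP and 70.6 kb away in C4-2. Those nearest to RBL2 lay 303.6 kb away in VCaP and 68.5 kb away in C4-2.

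**Figure D2:**
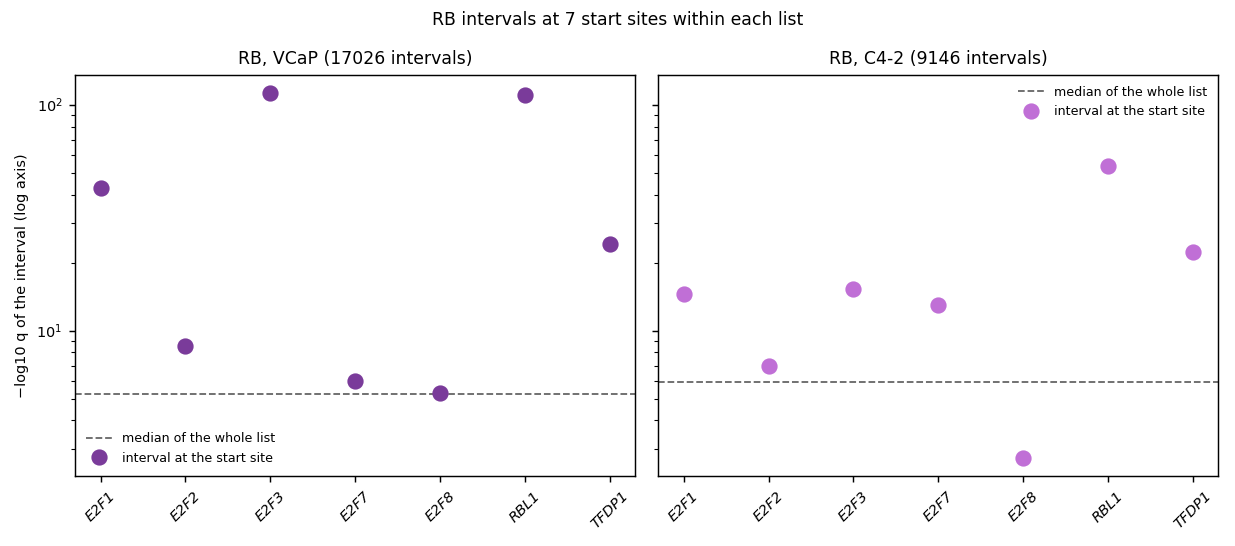
The −log10 q (log axis) of the strongest RB interval at each of 7 promoters in VCaP (left) and C4-2 (right), with the median of each whole list as a dashed line. All 7 stand above the VCaP median of 5.21, and all but E2F8 above the C4-2 median of 5.94, and heights are read within a panel only.

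RBL1 stood in the first or second place and E2F8 in the last in both lists by −log10 q, and the other places differed. The order was E2F3, RBL1, E2F1, TFDP1, E2F2, E2F7 and E2F8 in VCaP, and RBL1, TFDP1, E2F3, E2F1, E2F7, E2F2 and E2F8 in C4-2. In C4-2 the summit reads of E2F1, E2F3, E2F7 and TFDP1 (22 to 29) had overlapping counting intervals, so their reads do not order them beyond counting error. In VCaP the counting intervals of E2F3 and RBL1 also overlapped, and both lay above those of the other 5.

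V5 intervals met the RB intervals at E2F3 and E2F7 alone, and in WT lists alone. Of the 5420 C4-2 RB intervals shared with VCaP, 1220 met V5 in any list. WT lists alone met 795 of these (14.7% of the 5420), and any K185R list met 425 (7.84%). WT alone was thus the more common outcome at such sites, and 2 promoters cannot be set apart from it. At E2F3, WT lists held an interval with doxycycline plus GSK2879552 and with GSK2879552, and no K185R list did. At E2F7, WT lists held an interval at the RB summit with doxycycline plus GSK2879552, with GSK2879552 and without treatment, and no K185R list did. Summed over 4 lists each, 1 of 36 gene and list pairs had an interval in K185R and 6 of 36 in WT. This difference of -5 was -2 when only intervals of −log10 q of at least 5 were counted. The pairs count each promoter in 4 lists and are not independent. Those in WT were 2 at E2F3, 3 at E2F7 and 1 at RBL2. With doxycycline plus GSK2879552, 0 of 9 promoters had an interval in K185R (0.461% of all windows) and 2 of 9 in WT (0.509%). With doxycycline there were 0 of 9 in K185R (2.96%) and 1 of 9 in WT (8.41%), the edge of the RBL2 window described below. With GSK2879552 there were 0 of 9 in K185R (1.31%) and 2 of 9 in WT (0.369%), and without treatment 1 of 9 in K185R (7.32%) and 1 of 9 in WT (2.00%). The WT lists with 2 promoters were those that held the fewest windows of the 4 WT lists. As the windows include gene-poor sequence, their shares are not shares of promoters and do not show an excess at these genes. Depth ran from 0.838 to 1.79 reads per kilobase in K185R lists and from 0.716 to 1.40 in WT lists, and its part in these counts was not tested.

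The E2F3 intervals had their summits within 11 bases of that of RB in C4-2. With doxycycline plus GSK2879552 the WT interval at chr6:20401924-20402118 had a fold of 6.34, a −log10 q of 4.80 and 8 reads (3.45 to 15.8), with its summit 8 bases from that of RB. With GSK2879552 it lay at chr6:20401969-20402164 with a fold of 7.13, a −log10 q of 6.20 and 10 reads (4.80 to 18.4), with its summit 11 bases from that of RB. The counting intervals of both overlapped. The WT list with doxycycline alone had its nearest interval 3.42 kb from the E2F3 start, and the untreated WT list 132.5 kb from it.

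At E2F7 the strongest of the V5 intervals was that of WT with doxycycline plus GSK2879552. It spanned chr12:77459296-77459585 with a fold of 9.54, a −log10 q of 10.8 and 12 reads (6.20 to 21.0), rank 351 of 3874. With GSK2879552 the WT interval had a fold of 6.20, a −log10 q of 4.65 and 7 reads (2.81 to 14.4), and without treatment a fold of 4.90, a −log10 q of 3.04 and 5 reads (1.62 to 11.7). Their summits lay 30, 73 and 39 bases from that of RB in C4-2, and their counting intervals overlapped. The WT list with doxycycline alone, the longest of all, had its nearest interval 5.62 kb from the E2F7 start.

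**Figure D3:**
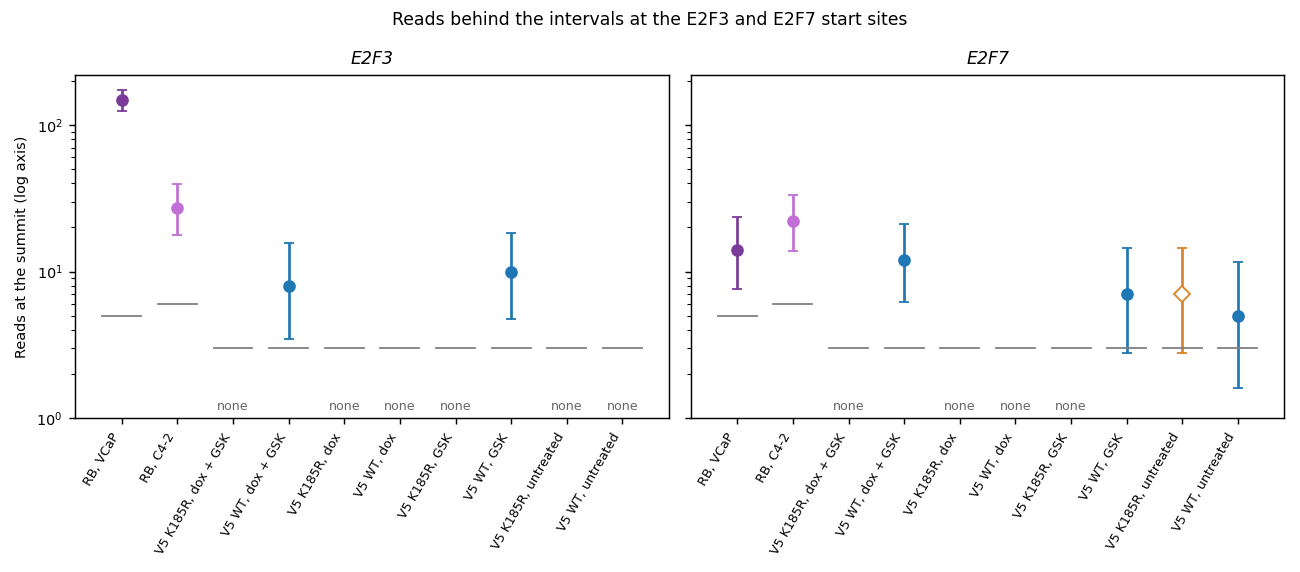
Reads at the summit (log axis) of the interval at the E2F3 start site (left) and at the E2F7 start site (right) in each list, with 95% Poisson intervals as bars. Grey lines give the lowest summit called at genome-wide background, "none" marks a list without an interval, and the open diamond is the K185R interval 1527 bases from the E2F7 start. V5 summits rest on 5 to 12 reads and RB summits on 14 to 148, in lists of different depth.

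The other V5 intervals in the windows lay away from the start sites and from RB, in the longest V5 lists. The untreated K185R list, with 55681 intervals, held one at chr12:77460802-77461024, with its summit 1527 bases upstream of the E2F7 start, a fold of 5.80 and 7 reads (2.81 to 14.4). The WT doxycycline list, with 64025 intervals, held one at chr16:53466120-53466410, which entered the RBL2 window by its edge alone, with its summit 2015 bases from the start, a fold of 3.91 and 4 reads (1.09 to 10.2). The nearest interval left out by the window was that of untreated K185R at chr13:48874991-48875142, 2.74 kb from the RB1 start, with a fold of 4.72 and 5 reads.

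In WT cells the E2F3 start site had an interval in both lists with GSK2879552 and in neither list without it. The E2F7 start site had one in both WT lists with GSK2879552, and in the untreated list but not the doxycycline list without it. The E2F3 intervals rested on 8 and 10 reads. How many other sites had these patterns was not analysed, so they are not shown to be particular to these genes. In K185R cells neither start site itself had an interval with or without GSK2879552. The untreated K185R interval in the E2F7 window, with its summit 1527 bases from the start, is included in the counts below. Over all 8 V5 lists, 4 of 36 gene and list pairs had an interval with GSK2879552, in lists that held 0.369% to 1.31% of all windows, and 3 of 36 without, in lists that held 2.00% to 8.41%. This difference of 1 pair was 3 with 1 kb either side, 4 at equal list length and -2 with 5 kb either side, so its direction depended on the window. The WT lists with GSK2879552 were also the shortest and shallowest of the WT lists, at 0.81 reads per kilobase on top of doxycycline and 0.716 alone, against 1.40 with doxycycline and 1.21 untreated, and the part of depth was not tested. For doxycycline the same counts were 3 of 36 with it, in lists that held 0.461% to 8.41% of all windows, and 4 of 36 without, in lists that held 0.369% to 7.32%. That difference of -1 was 0 at −log10 q of at least 5 and at equal list length, and -2 with the summit required inside the window or with 5 kb either side.

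No V5 list had an interval at E2F1, E2F2, E2F8, RBL1, RB1 or TFDP1. RBL1 and TFDP1 had the highest −log10 q of RB in C4-2 among the 9 promoters, and the nearest V5 interval in any list was 21.96 kb from RBL1 and 19.6 kb from TFDP1. Counts over the promoters are set beside the shares of all RB sites of both lines, with no test. V5 in at least 1 list overlapped RB at 2 of the 7 shared promoters, against 22.5% of 5420 C4-2 RB intervals that VCaP shares. WT without any K185R interval accounted for 2 of 7, against 14.7%, and any K185R interval for 0 of 7, against 7.84%. These shares count intervals and not promoters, and counts over 7 promoters are too small to be set apart from them. By interval, 2 of the 9 C4-2 RB intervals at the 7 promoters overlapped V5, in WT lists alone. Of the 7 promoters, 5 had a C4-2 RB −log10 q of at least 9.54, the lower limit of the 1308 strongest of 5233 shared sites of low background. Of these 5, 2 overlapped a WT V5 interval, against 35.2% of those 1308 sites, and 0 a K185R interval, against 11.4%.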

How the data were processed

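RB and V5 ChIP-seq of 19 libraries in 10 groups was available as 1 interval list per group. Per the submitters' processing notes, the tools were MACS2 2.1.0, BWA 0.7.9a, SAMtools 1.2 and FastQC 0.11.9, with build hg19; settings, duplicate removal and any control sample were not stated. By its interval names, each deposited V5 list was made from pooled libraries; the C4-2 RB list carries the name of 1 library. The authors deposited a fold enrichment (a linear ratio to the local background), a −log10 p-value, a −log10 q-value and a summit for each interval.

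Intervals overlapping 2 kb either side of each start site were taken from the authors' full lists, and where a list had more than 1 interval in a window the one of highest −log10 q stood for it. All 9 genes are named. Reads and background at the summit were solved from fold and p under the MACS2 Poisson model (recomputed −log10 p within 0.000163), a step tested on simulated data. The lowest background that 5 or more intervals have in common is the genome-wide level, and at least 10 times it is called high background. Depth is that level divided by the smallest interval width. PCR reads without molecular identifiers are not independent molecules. Windows of 4001 bases tile each chromosome up to the last interval of any list. Python 3.11.15 with numpy 2.4.6, pandas 2.3.3 and scipy 1.17.1 was used. The genes and settings were chosen with earlier results of these data known, and the sequence motifs after the promoters had been seen. Counts over all hg19 promoters, for other pathway genes and for promoters of like pattern were planned but not analysed here for want of an hg19 annotation. Alternatives changed the window, the threshold, the background and the list length.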

Additional observations from a re-analysis of the deposited data

How the results depend on the processing

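No paired analysis was possible because there is 1 list per group with no values per library, and for the same reason no replicate could be left out. With 1 kb either side, the WT doxycycline and untreated K185R lists had 0 promoters in place of 1 each, and GSK2879552 minus none, summed over 4 lists, was 3 in place of 1; 500 bases either side, chosen after seeing the data, gave 0, 0 and 3. With the summit required inside the window, WT doxycycline had 0, and the summed differences were -4 for K185R minus WT (-5 in the full lists), 2 for GSK2879552 and -2 for doxycycline (-1 in the full lists). At −log10 q of at least 5, WT had 1 promoter with both treatments, 0 with doxycycline, 1 with GSK2879552 and 0 untreated, and untreated K185R had 0. The summed differences were then -2, 2 and 0 in the same order. C4-2 RB had 6 promoters in place of 7, so VCaP minus C4-2 was 1 in place of 0. Without high-background intervals VCaP minus C4-2 was -1, since E2F3 left the VCaP list. With the 2805 strongest intervals of each list, VCaP had 4 promoters and C4-2 RB had 5, in place of 7 each, so VCaP minus C4-2 was -1. WT doxycycline, untreated K185R and untreated WT then had 0, and the summed differences were -4, 4 and 0. With 5 kb either side, also chosen after seeing the data, WT doxycycline had 2 and untreated K185R 3, K185R minus WT was -4, doxycycline minus none -2, and GSK2879552 minus none turned to -2. The cause of these changes was not tested. The 2 promoters with RB and V5 summits in one place, within 100 bases, were 2 within 250 bases and by overlap. Summed over 4 lists each, K185R minus WT was below 0 under each window, threshold, background and list length setting, while the untreated pair alone had 1 promoter in K185R and 1 in WT in the full lists and 3 in K185R and 1 in WT with 5 kb either side; 74 of 107 alternative values were equal or, for counts, within 1.5 times. V5 summits in the windows rested on 4 to 12 reads, which limits what can be detected.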

Other observations

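Outside the windows, V5 intervals recurred near E2F2 and E2F1, and both places were chosen after their values were seen. About 8 kb upstream of the E2F2 start, at chr1:23865626-23865944 in the WT doxycycline list, 5 of the 8 V5 lists held an interval and neither RB list did. Summit reads there were 13 in K185R and 18 in WT with doxycycline, 9 in K185R with GSK2879552, and 18 in K185R and 11 in WT without treatment. The 3 lists without it were WT with GSK2879552 and both lists with doxycycline plus GSK2879552. These 3 were also the shortest and shallowest V5 lists, at 0.716 to 0.838 reads per kilobase, against 1.02 to 1.79 in the 5 with it. The part of depth was not tested. The nearest V5 interval to E2F1 in 3 WT lists lay about 46 kb away, at chr20:32319933-32320251 in the untreated list, with a fold of 6.82 and 9 reads. Both RB lists held an interval there, with 28 reads in VCaP and 23 in C4-2. The other WT lists with it were doxycycline plus GSK2879552 and GSK2879552 alone, each with 7 reads, and no K185R list held one there. Nearer to the E2F1 start, untreated K185R held a V5 interval 9.60 kb away and WT with doxycycline held one 21.0 kb away, each with 6 reads.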
